A study of Homo sapiens with 6 samples.

Results

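The genes described here are 40 genes of DNA replication and of the passage from G1 into S phase, taken as the rows of the deposited tables whose gene symbol matched a fixed list. All 40 were among the 44591 genes listed in the files, and all 40 passed the filter on low counts together with 16222 genes in all. They were divided by function into 7 roles, which were origin licensing (11 genes), helicase activation (6), the sliding clamp with its loader and the flap nuclease (6), polymerases and primase (5), nucleotide supply (4), G1/S regulators (6) and maintenance of DNA methylation (2).

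RNA was sequenced from A2780 cells, a human ovarian cancer cell line whose genotype is labelled WT, grown in DMEM with 10% fetal bovine serum. Untreated libraries (n = 3) were set against libraries from cells that received 40 ng/ml of human recombinant CRMP2 protein (r-CRMP2) for 48 h (n = 3). CRMP2, encoded by DPYSL2, is a cytosolic phosphoprotein best known for its part in axon growth, and the study added it to the medium to ask how the secreted protein acts on ovarian cancer cells. The labels name 3 replicates a group and do not say whether these were separate cultures, so p-values measure the spread between these libraries only, which may be technical.

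Before S phase, the origin recognition complex, CDC6 and CDT1 load the MCM2-7 ring onto origins as an inactive helicase, and geminin holds CDT1 in check once S phase has begun. CDC45 and the GINS complex then join the ring to make the active helicase, and polymerases alpha, delta and epsilon copy the strands behind it. The PCNA clamp holds polymerases delta and epsilon to DNA. Most of these genes are transcribed under E2F factors, which cyclin E kinases help to keep active. The expression of these genes is widely read as a sign of proliferation in ovarian and other tumours.

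The libraries held 21888530 to 25711353 counts, of which the 40 genes took 0.460% to 0.502% in untreated cells and 0.447% to 0.455% after r-CRMP2. The composition of the libraries differed between the groups. Transcripts of the mitochondrial genome made up 6.19% to 6.59% of counts in untreated libraries and 3.76% to 4.10% in r-CRMP2 libraries, and the TMM factors, which correct for composition, were 1.10 to 1.12 against 0.878 to 0.922. The choice of scaling therefore moved every fold change, with the median of all genes tested at -0.026 (log2) under TMM and at -0.34 under library size alone. Unless said otherwise, levels below are CPM (read counts normalised to the size of the library, TMM-scaled) and differences are log2 fold changes, r-CRMP2 against untreated, with their SE and the adjusted p of edgeR's quasi-likelihood test (Benjamini-Hochberg over all genes tested). A gene was called at an adjusted p under 0.05, and the part of library composition in any difference was not tested. Of 9 epithelial or ovarian carcinoma markers, the keratins KRT8 (1266 ± 12.9 CPM), KRT18 (1251 ± 29.2) and KRT7 (665 ± 41.2) were abundant in untreated cells (SD, n = 3). In the same cells MUC16 was at 42.7 ± 7.75 CPM, EPCAM at 4.44 ± 0.209 and PAX8 at 4.06 ± 0.298. KRT19 (1.40 ± 0.496 CPM), CDH1 (0.125 ± 0.0534) and WT1 (0.0739 ± 0.0336) were lower still. Of 10 fibroblast markers 9 passed the filter, with a summed level of 606 to 679 CPM in untreated and 529 to 553 CPM in r-CRMP2 libraries, of which COL1A1 gave 419 ± 34.6 and 316 ± 12.6 CPM, while COL1A2 (0.35), LUM (0.53) and THY1 (0.17) were called higher, PDGFRB and POSTN were called lower beside COL1A1, and FAP was near 0 at 0.263 ± 0.0224 CPM in untreated cells. Their part in the results was not tested.

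Replication genes did not move as one block after r-CRMP2. RRM2, CCNA2, CDT1 and ORC1 rose by 1.55- to 2.11-fold, and GINS4, POLA1, GINS3, CDC45, CCNE2, POLA2, CDC6, POLE, MCM10, DNMT1 and POLD1 fell to 0.567 to 0.881 of their untreated level. These 15 calls held under both scalings. Library size alone moved fold changes down, so it put only the 4 rises to a test and could not undo the falls. Of all genes tested, all 4875 that were lower with TMM stayed lower, and 2171 of the 4574 that were higher stayed higher. A further 10 genes were called higher with TMM and with RLE size factors but not under library size alone, where 8 of them had a fold change below 0 and MCM7 was called lower. The other 15 genes were not called with TMM, and under library size alone 14 of them were called lower, RFC3 being the exception. In bulk RNA, a change in the share of cells in each cell cycle phase cannot be told apart from a change in RNA per cell. Neither was tested.

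With TMM, 14 of the 40 genes (35%) were higher, against 28.2% of all genes tested, and 11 (27.5%) were lower, against 30.1%. Under library size alone the split was 4 higher (10%) and 26 lower (65%), where 13.4% and 52.1% of all genes tested were called. The calls shared by both scalings numbered 4 higher, beside a background of 13.4%, and 11 lower, beside 30.1%. RRM2 was the only gene of the set that also passed a log2 fold change of 1 upwards, where 5.12% of all genes did, and 0 passed it downwards with edgeR (TMM) or with DESeq2, where 8.86% of all genes did by edgeR. GINS4 passed it at -1.13 under library size alone. All 3 r-CRMP2 libraries lay above all 3 untreated ones for 18 genes (background 30.9%) and below them for 15 genes (background 33.3%), and 7 genes overlapped. As shares, the calls at an adjusted p under 0.05 in each direction were near those of all genes.

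The sizes of the changes were described beside those of all genes, with no test. The median fold change was 0.036 under TMM, against -0.026 for all genes tested, and 34 of the 40 genes (85%) stayed within 0.5 of 0 on the log2 scale, against 60.8% of all genes tested. The summed level of the set was 4377 ± 150 CPM in untreated and 5027 ± 167 CPM in r-CRMP2 libraries (SD, n = 3), a change of 14.8% that became -7.47% under library size alone.

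**Figure D1:**
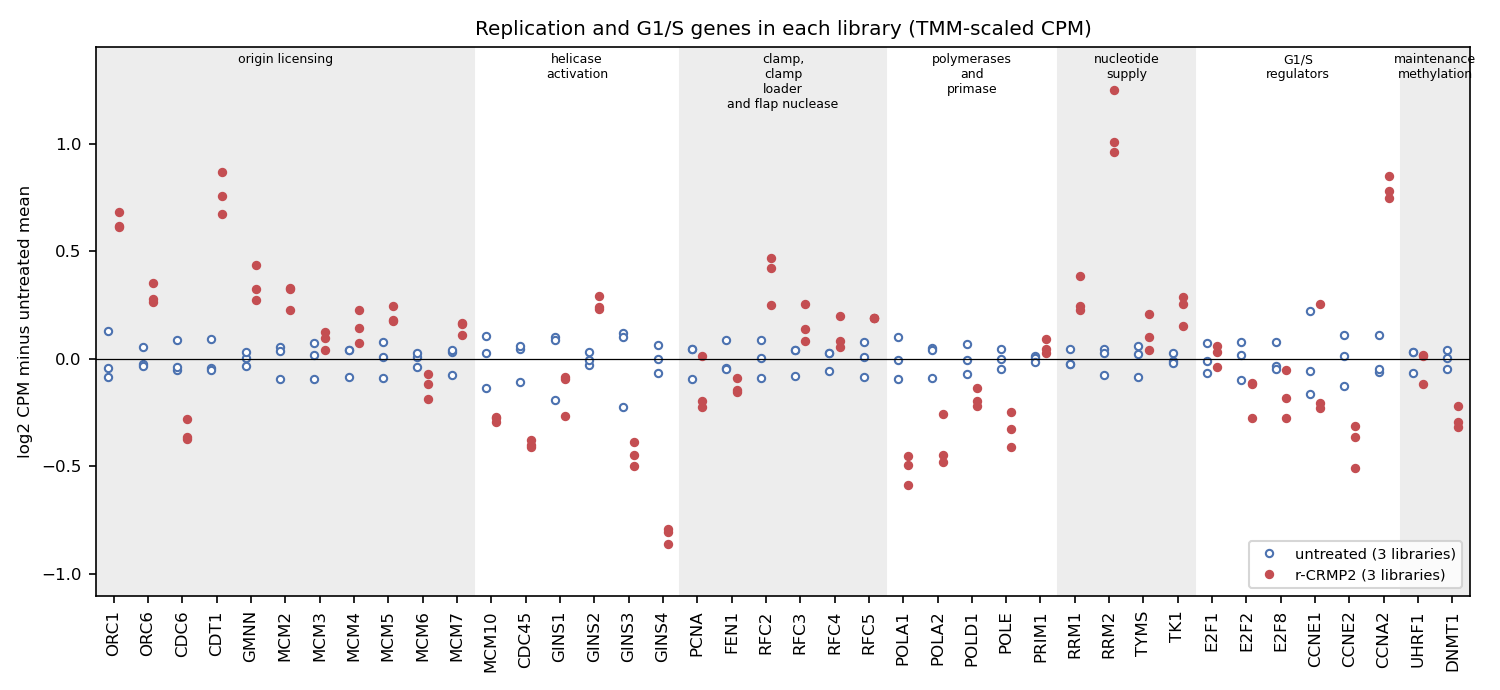
Log2 CPM (TMM-scaled) of each of the 40 genes in the 3 untreated (open) and 3 r-CRMP2 (filled) libraries, as the difference from the untreated mean, with shading by role. RRM2, CCNA2, CDT1 and ORC1 stand clear above the line and GINS4 clear below it, in every r-CRMP2 library.

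The regions upstream of 4 of these genes are printed to show what the promoters of clear rises (RRM2 and CDT1) and clear falls (POLA1 and CDC45) look like. Each is the 250 bases before the RefSeq gene start on the + strand of GRCh38.p14, namely chr2:10122489-10122738 for RRM2, chr16:88803539-88803788 for CDT1, chrX:24693668-24693917 for POLA1 and chr22:19479670-19479919 for CDC45. Capitals mark matches on either strand to an E2F word (TTTCCCGC, TTTCGCGC, TTTGCCGC or TTTGGCGC), to CCAAT, the word bound by NF-Y, to TTTGAA (the CHR element) or to ACGTG (the core of the hypoxia response element).
RRM2: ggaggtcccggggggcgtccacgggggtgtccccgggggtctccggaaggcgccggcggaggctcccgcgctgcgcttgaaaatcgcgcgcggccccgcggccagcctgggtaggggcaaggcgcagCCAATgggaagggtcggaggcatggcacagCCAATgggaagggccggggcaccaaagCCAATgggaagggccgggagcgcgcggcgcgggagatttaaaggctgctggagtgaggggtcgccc
CDT1: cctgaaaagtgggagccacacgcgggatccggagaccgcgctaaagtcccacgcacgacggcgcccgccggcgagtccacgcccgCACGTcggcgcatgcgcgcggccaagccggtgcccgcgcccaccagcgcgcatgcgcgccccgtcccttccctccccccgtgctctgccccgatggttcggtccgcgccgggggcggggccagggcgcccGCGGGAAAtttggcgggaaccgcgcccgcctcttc
POLA1: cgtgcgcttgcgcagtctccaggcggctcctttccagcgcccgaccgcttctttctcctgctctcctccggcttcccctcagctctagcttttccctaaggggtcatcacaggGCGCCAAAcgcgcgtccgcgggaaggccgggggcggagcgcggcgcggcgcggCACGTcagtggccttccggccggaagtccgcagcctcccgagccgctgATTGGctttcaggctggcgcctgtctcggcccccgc
CDC45: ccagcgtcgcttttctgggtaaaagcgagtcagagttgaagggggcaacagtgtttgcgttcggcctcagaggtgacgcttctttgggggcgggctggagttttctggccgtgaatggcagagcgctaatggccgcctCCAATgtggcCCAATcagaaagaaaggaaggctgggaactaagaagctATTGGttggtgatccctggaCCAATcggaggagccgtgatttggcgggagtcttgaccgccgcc
RRM2 carried 3 CCAAT words and no E2F word in the window, CDC45 carried 4 CCAAT words, CDT1 an E2F word at -35 to -28 before the start, and POLA1 an E2F word at -137 to -130. Promoters in RefSeq, 300 bases each (250 before and 50 after the start), were found for 35 of the 40 genes. An E2F word occurred in 19 of them (54.3%), against 3.31% of all 35116 promoters, and CCAAT in 20 (57.1%) against 34.6%. Among genes called with TMM, an E2F word was found in 4 of 13 higher and 6 of 9 lower promoters, and in 9 of 13 that were not called. The word ACGTG was found in 7 of 13 higher, 1 of 9 lower and 2 of 13 uncalled promoters, against 21.4% of all promoters. Of the genes called higher under both scalings, CDT1 held ACGTG, and RRM2, CCNA2 and ORC1 did not. TTTGAA was found only in RRM1 of the 35, against 15.2% of all promoters. Only this exact word was searched, so variants of the CHR element, such as CTTGAA, were not counted. A match describes these letters and not a bound site.

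Of the 11 licensing genes, CDT1 and ORC1 were higher and CDC6 lower under both scalings. CDT1, which brings MCM2-7 to origins (hg19 chr16:88870186-88875666), stood at 254, 279 and 252 CPM in untreated and at 417, 442 and 477 CPM in r-CRMP2 libraries. The groups did not overlap, with a fold change of 0.77 (SE 0.073, adjusted p = 1.3e-08, edgeR) under TMM and 0.46 under library size alone. ORC1, the largest subunit of the origin recognition complex (hg19 chr1:52838501-52870143), rose in the same direction by 0.63 (SE 0.069, adjusted p = 1.95e-07, edgeR), from 64.7 ± 5.21 to 101 ± 2.66 CPM (SD, n = 3), and by 0.33 under library size alone.

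CDC6, the ATPase that works with CDT1 and ORC in loading, went the other way. It stood at 94.6, 95.6 and 104 CPM in untreated and 80.7, 76.3 and 75.8 CPM in r-CRMP2 libraries, all 3 below the lowest untreated value. Its fold change was -0.34 (SE 0.052, adjusted p = 0.000176, edgeR). GMNN, which encodes the CDT1 inhibitor geminin, stood at 58.1, 56.7 and 59.2 CPM in untreated and 70.2, 78.5 and 72.6 CPM in r-CRMP2 libraries. Its groups did not overlap with TMM and it was called at 0.35 (SE 0.051, adjusted p = 0.000169, edgeR), but the value under library size alone was 0.035 (adjusted p = 0.652, edgeR). ORC6, the smallest ORC subunit, was called at 0.30 with TMM (adjusted p = 0.00124, edgeR) and had -0.013 under library size alone.

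With TMM, 3 of the 6 subunits of the MCM2-7 ring were called higher, beside 28.2% of all genes tested, and 3 were not called. Under library size alone 4 were called lower, beside 52.1% of all genes tested. MCM2 stood at 230.1, 256 and 252 CPM in untreated and 288, 308 and 309 CPM in r-CRMP2 libraries. Its groups did not overlap, and the fold change was 0.29 (SE 0.058, adjusted p = 0.000566, edgeR) under TMM and -0.019 under library size alone. MCM5 was called at 0.20 and MCM7 at 0.15 (adjusted p = 0.0103 and 0.0434, edgeR), while MCM3 (0.087), MCM4 (0.15) and MCM6 (-0.12) were not called. These 3 were called lower under library size alone, at -0.23 for MCM3 (adjusted p = 0.00336, edgeR), -0.16 for MCM4 (adjusted p = 0.0262, edgeR) and -0.44 for MCM6 (adjusted p = 1.21e-05, edgeR). MCM7 was called in opposite directions by the scalings, with -0.16 under library size alone (adjusted p = 0.0168, edgeR), and lost its call without the low-count filter (adjusted p = 0.134), with a minimum of 10 counts in every library (adjusted p = 0.0659) and in 4 of the 6 fits that left out 1 library (untreated replicate 1, 2 or 3 or r-CRMP2 replicate 3, adjusted p = 0.0628 to 0.165, edgeR). MCM4 was called by DESeq2 (adjusted p = 0.022), with RLE size factors (adjusted p = 0.0327, edgeR) and without r-CRMP2 replicate 3 (adjusted p = 0.0429, edgeR). MCM5 lost its call without untreated replicate 1 (adjusted p = 0.0581, edgeR) and without r-CRMP2 replicate 3 (adjusted p = 0.0535, edgeR). Per length, MCM7 was the most and MCM6 the least abundant subunit in all 6 libraries, with a ratio of 3.61 to 3.76 in untreated and 4.34 to 4.72 in r-CRMP2 libraries (TPM).

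In the role of helicase activation, 4 of 6 genes fell, 1 was called higher and 1 was not called with TMM. By the same rule 30.1% of all genes tested were lower and 28.2% higher. GINS4, which encodes the SLD5 subunit of GINS, stood at 44.7, 46.7 and 48.9 CPM in untreated and 27.1, 25.8 and 26.8 CPM in r-CRMP2 libraries. It had the largest fall of the 40 genes, to 0.567 of the untreated level, with -0.82 (SE 0.043, adjusted p = 1.85e-08, edgeR) and no overlap between groups. An antisense gene overlaps it over 4664 bases, with 77 to 221 counts a library against 510 to 1339 for GINS4, and without strand the reads of both cannot be told apart. GINS3, the PSF3 subunit (hg19 chr16:58426298-58440048), stood at 13.9, 17.6 and 17.4 CPM in untreated and 11.5, 12.4 and 11.9 CPM in r-CRMP2 libraries. It fell by 0.45 on the log2 scale (SE 0.12, adjusted p = 0.00163, edgeR), and the untreated values were the more scattered.

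The GINS complex contains its 4 subunits in equal number, yet their transcripts did not move alike. GINS1 (PSF1) overlapped between groups at -0.15 (adjusted p = 0.207, edgeR) with TMM and was called lower at -0.46 (adjusted p = 0.0011, edgeR) under library size alone. GINS2 (PSF2) was called at 0.25 with TMM (adjusted p = 0.00785, edgeR) and had -0.057 under library size alone. CDC45, the partner of GINS in the helicase (hg19 chr22:19467349-19508135), fell from 29.3 ± 1.87 to 22.3 ± 0.292 CPM (SD, n = 3), a fold change of -0.40 (SE 0.055, adjusted p = 0.000315, edgeR). MCM10, needed to start the loaded helicase, fell from 30.2 ± 2.52 to 24.8 ± 0.209 CPM, or -0.28 (SE 0.071, adjusted p = 0.00622, edgeR). The summed level of the 6 genes was 153 to 174 CPM in untreated and 130 to 133 CPM in r-CRMP2 libraries.

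All 4 polymerase subunits of the set fell under both scalings, as did every gene called lower with TMM. The primase subunit of the set was not called with TMM. Of 7 other polymerase and primase genes outside the set, 4 were higher and 1 was lower with TMM. Among all genes tested, 28.2% were higher and 30.1% lower. POLA1, the catalytic subunit of polymerase alpha that extends each RNA primer (hg19 chrX:24711950-25015103), stood at 51.3, 54.6 and 58.7 CPM in untreated and 36.5, 40.1 and 39.0 CPM in r-CRMP2 libraries. Every r-CRMP2 library lay below every untreated one, with -0.51 (SE 0.069, adjusted p = 7.78e-06, edgeR). POLA2, the accessory subunit of the same polymerase, fell by 0.39 (adjusted p = 0.000349, edgeR), and POLE, the leading-strand polymerase, by 0.33 (adjusted p = 0.000218, edgeR). POLD1, the catalytic subunit of the lagging-strand polymerase, fell by 0.18 (adjusted p = 0.0174, edgeR) and lost the call without untreated replicate 2 (adjusted p = 0.107, edgeR) or without r-CRMP2 replicate 3 (adjusted p = 0.0874, edgeR). PRIM1, the catalytic subunit of primase, which acts in 1 complex with POLA1, was at 24.1 ± 0.223 and 25.02 ± 0.593 CPM, with 0.055 (adjusted p = 0.564, edgeR) under TMM and -0.26 (adjusted p = 0.00932, edgeR) under library size alone.

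Of the clamp, its loader and the flap nuclease, none of the 6 genes was called in the same direction under both scalings. Over all genes tested, 13.4% were higher and 30.1% lower under both. PCNA stood at 112, 124 and 123 CPM in untreated and 104, 121 and 102 CPM in r-CRMP2 libraries. The groups overlapped at -0.13 (SE 0.088, adjusted p = 0.117, edgeR), although without r-CRMP2 replicate 2 the value was -0.20 (adjusted p = 0.0114, edgeR). PCNA was called lower under library size alone at -0.45 (adjusted p = 3.06e-05, edgeR), and PCNA-AS1 overlaps PCNA over 384 bases on the other strand. RFC2, a small subunit of the clamp loader, was at 52.5, 56.1 and 59.4 CPM in untreated and 66.5, 77.4 and 75.1 CPM in r-CRMP2 libraries. It was called at 0.38 (SE 0.084, adjusted p = 0.000172, edgeR) with TMM, and had 0.069 (adjusted p = 0.415, edgeR) under library size alone. RFC5 was called at 0.19 (adjusted p = 0.0205, edgeR) with TMM and had -0.12 under library size alone; the call was lost without untreated replicate 1 (adjusted p = 0.0976), untreated replicate 2 (adjusted p = 0.0586) or r-CRMP2 replicate 3 (adjusted p = 0.0505), and without the low-count filter (adjusted p = 0.0749). RFC3 (0.16, called with RLE size factors at adjusted p = 0.042, edgeR), RFC4 (0.11) and FEN1, the nuclease that trims Okazaki fragment flaps (-0.13), were not called with TMM. Under library size alone FEN1 was called lower at -0.44 (adjusted p = 1.08e-05, edgeR) and RFC4 at -0.20 (adjusted p = 0.0139, edgeR).

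**Figure D2:**
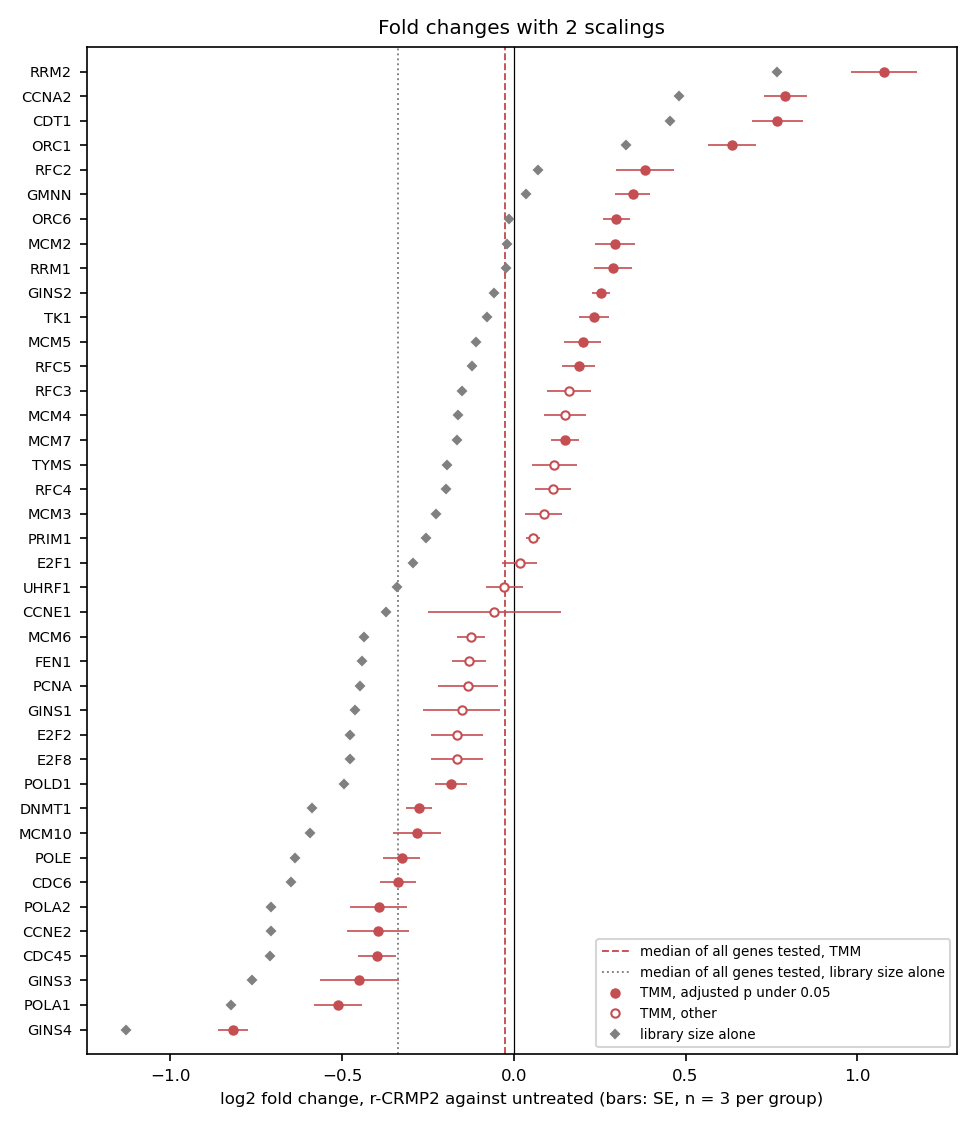
Log2 fold change (r-CRMP2 against untreated) of each of the 40 genes with TMM scaling (circles, filled where called at an adjusted p under 0.05, bars SE, n = 3 per group) and with library size alone (diamonds); vertical lines give the median of all genes tested under each scaling, -0.026 and -0.34. The order of the genes is alike under both, and 4 genes lie above 0 and are called under both.

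Nucleotide supply held the largest rise. RRM2, the small and cell cycle-regulated subunit of ribonucleotide reductase, which makes deoxyribonucleotides (hg19 chr2:10262695-10271546), stood at 213, 232 and 229 CPM in untreated and 438, 534 and 452 CPM in r-CRMP2 libraries. The lowest r-CRMP2 value was well above the highest untreated value, on 5699 to 10568 counts a library. The means were 225 ± 10.0 and 475 ± 51.9 CPM (SD, n = 3), a rise of 2.11-fold with a log2 fold change of 1.08 (SE 0.096, adjusted p = 4.47e-10, edgeR). Whether it passed a log2 fold change of 1 rested on r-CRMP2 replicate 2, since without that library it was 0.995, and under library size alone it was 0.76. RRM1, the large subunit of the same enzyme, was at 240.5 ± 6.67 and 294 ± 17.9 CPM, called at 0.29 with TMM (adjusted p = 0.000607, edgeR) and at -0.023 under library size alone.

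TYMS, the thymidylate synthase, stood at 195, 210 and 216 CPM in untreated and 213, 239 and 222 CPM in r-CRMP2 libraries, and its groups overlapped. Its fold change was 0.12 (SE 0.065, adjusted p = 0.129, edgeR) and became a call at 0.17 without r-CRMP2 replicate 1 (adjusted p = 0.0452, edgeR), while under library size alone it was called lower at -0.19 (adjusted p = 0.01, edgeR). ENOSF1 overlaps TYMS over 3180 bases on the other strand and held 2774 to 3522 counts a library, against 4542 to 5899 for TYMS. TK1, which salvages thymidine, was called at 0.23 with TMM (adjusted p = 0.00291, edgeR) and had -0.078 under library size alone.

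Among the G1/S regulators the cyclins diverged and the E2F genes were not called with TMM. CCNA2, the cyclin A of S phase and G2 (hg19 chr4:122737599-122745156), stood at 94.9, 84.2 and 84.9 CPM in untreated and 148, 158 and 151 CPM in r-CRMP2 libraries. It rose by 1.73-fold with 0.79 (SE 0.063, adjusted p = 6.56e-09, edgeR), and by 0.48 on the log2 scale under library size alone. EXOSC9 overlaps it over 578 bases on the other strand, with 659 to 862 counts a library against 2066 to 3466 for CCNA2. CCNE2, one of the cyclin E genes that open S phase, stood at 24.4, 26.9 and 28.8 CPM in untreated and 21.4, 20.7 and 18.7 CPM in r-CRMP2 libraries. It fell without overlap between groups by 0.40 (SE 0.091, adjusted p = 0.000814, edgeR). INTS8 overlaps CCNE2 over 270 bases on the other strand, with 514 to 951 counts a library against 410 to 788 for CCNE2.

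CCNE1, the other cyclin E gene, was low and did not separate the groups, at 9.46, 10.2 and 12.4 CPM in untreated and 9.03, 12.6 and 9.19 CPM in r-CRMP2 libraries. Its fold change was -0.057 (SE 0.19, adjusted p = 0.749, edgeR), with the widest error of the set, and under library size alone it was called lower at -0.37 (adjusted p = 0.0305, edgeR). E2F1, an activator of S-phase genes, stood at 111, 116 and 123 CPM in untreated and 113, 119 and 121 CPM in r-CRMP2 libraries. The groups overlapped throughout, at 0.017 (SE 0.050, adjusted p = 0.834, edgeR), while library size alone gave -0.29 (adjusted p = 0.00053, edgeR). E2F2, another activator, and E2F8, a repressor of the family, were both at -0.17 and not called (adjusted p = 0.0683 and 0.262, edgeR), though E2F2 was called at -0.21 without untreated replicate 1 (adjusted p = 0.0363, edgeR). Both were called lower at -0.48 under library size alone (adjusted p = 7.78e-05 and 0.00318, edgeR).

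Of the methylation genes, DNMT1 fell and its recruiter UHRF1 was not called with TMM. DNMT1, which copies CpG methylation onto the new strand, stood at 233, 241 and 247 CPM in untreated and 196, 193 and 206 CPM in r-CRMP2 libraries. All 3 r-CRMP2 values lay below the untreated ones, with -0.28 (SE 0.038, adjusted p = 0.000625, edgeR). UHRF1, which binds hemimethylated DNA and brings DNMT1 to it, stood at 138, 148 and 148 CPM in untreated and 133, 146 and 146 CPM in r-CRMP2 libraries. The groups overlapped at -0.028 (SE 0.054, adjusted p = 0.73, edgeR) with TMM, and UHRF1 was called lower at -0.34 (adjusted p = 0.000109, edgeR) under library size alone.

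**Figure D3:**
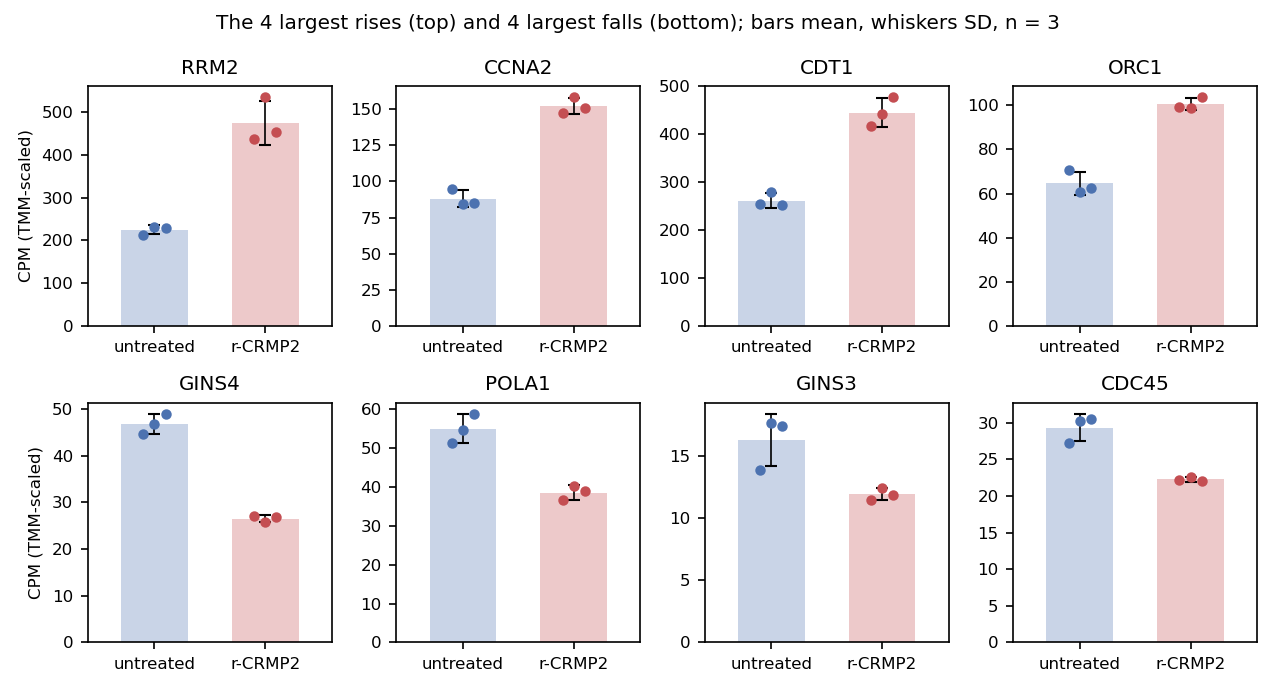
CPM (TMM-scaled) of the genes with the 4 largest rises (top) and the 4 largest falls (bottom), with bars at the mean, whiskers for SD and a point for each of 3 libraries per group. RRM2 went from 225 to 475 CPM and GINS4 from 46.8 to 26.5 CPM, and in no panel do the groups overlap.

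A ratio of 2 genes within a library does not depend on how libraries are scaled, so 7 pairs of functional partners were compared in TPM (read counts per gene length, normalised within each library). The pairs were chosen after the fold changes were seen, so the ratios describe the same differences on a scale-free footing. In the ribonucleotide reductase pair, RRM2 over RRM1 was 0.939, 1.02 and 0.960 in untreated and 1.62, 1.77 and 1.65 in r-CRMP2 libraries. CDT1 over its inhibitor GMNN went from 2.30 ± 0.181 to 3.07 ± 0.243 (SD, n = 3), and ORC1 over CDC6 from 0.638 ± 0.0729 to 1.25 ± 0.0660. The order of these loading factors turned round, since CDC6 was the more abundant transcript in every untreated library and ORC1 in every r-CRMP2 library.

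CCNA2 over CCNE2 went from 3.16 ± 0.476 to 7.16 ± 0.565, the largest shift of the 7 at 2.28-fold. GINS2 over GINS4 went from 1.68 ± 0.0415 to 3.53 ± 0.177, and PRIM1 over POLA1 from 1.68 ± 0.128 to 2.48 ± 0.0717. MCM2 over CDC45, the ring against its activator, went from 4.96 ± 0.0686 to 8.001 ± 0.319. In none of the 7 pairs did the groups overlap. The exact two-sided permutation test gave p = 0.1 for each, also when adjusted over the 7 pairs, which is the smallest value that 3 against 3 libraries allow, so it could not pass 0.05.

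**Figure D4:**
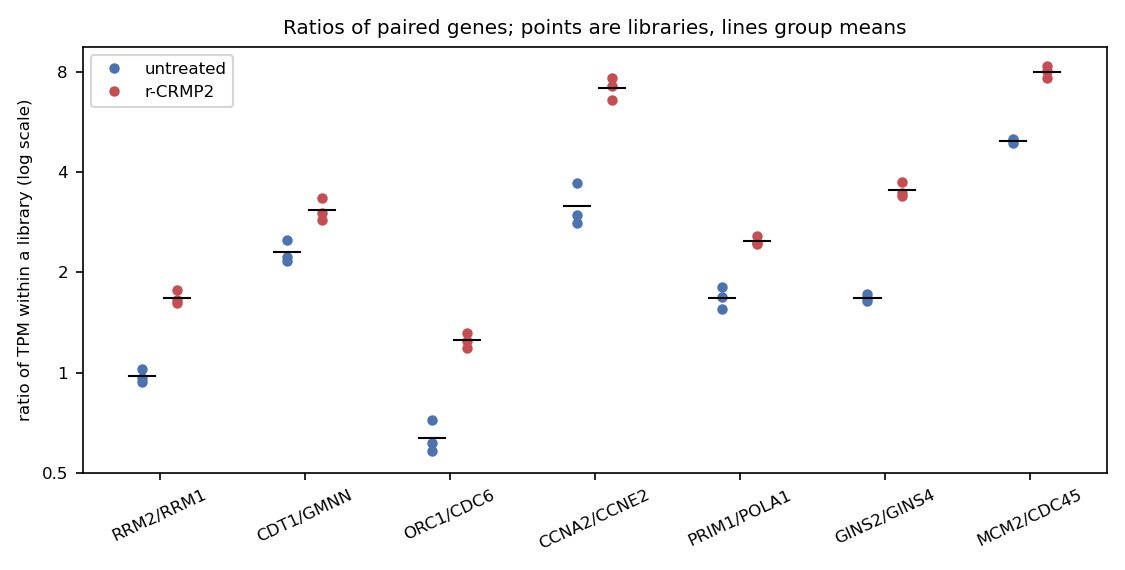
Ratio of the TPM of 2 genes within each library (log scale) for 7 pairs, with points for the 3 untreated and 3 r-CRMP2 libraries and lines at the group means. The r-CRMP2 points lie above the untreated ones in each pair, from 1.34-fold for CDT1/GMNN to 2.28-fold for CCNA2/CCNE2.

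Levels of different genes were ordered in TPM. In untreated cells TYMS was highest at 318 ± 20.3 TPM, followed by CDT1 (239 ± 16.5), TK1 (236 ± 1.62) and MCM7 (229 ± 13.1), and E2F8 was lowest at 5.38 ± 0.282 TPM (SD, n = 3), a span of 59.2-fold. Of the 39 neighbouring pairs in this order, 25 overlapped over their 3 libraries and so did not differ beyond their spread, TYMS and CDT1 not being among them. After r-CRMP2, CDT1 was first at 324 ± 23.3 TPM, ahead of TYMS at 275 ± 3.34 and RRM2 at 268 ± 16.7, and E2F8 was again last at 3.83 ± 0.418 TPM, a span of 84.6-fold. Subunits of 1 enzyme could sit close together, as RRM1 (164 ± 5.60 TPM) and RRM2 (160 ± 9.45 TPM) did in untreated cells.

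A further 71 replication genes outside the set were counted by the same rules. With TMM, 16 were higher (22.5%, beside 28.2% of all genes tested), 36 lower (50.7%, beside 30.1%) and 19 not called, with a median of -0.21. Under library size alone 4 were higher and 54 lower (76.1%, beside 52.1%), and with both scalings 4 were higher (ATAD5, POLD3, RBL2 and TICRR) and 36 lower. CHTF8, a subunit of the alternative clamp loader that aids cohesion, fell from 96.1 ± 6.65 to 45.5 ± 3.79 CPM at -1.08 (adjusted p = 5.18e-10, edgeR). E2F5, which acts mainly as a repressor, fell by 1.02 (adjusted p = 0.00107, edgeR) on only 25 to 90 counts a library, beside 346 to 494 counts of C8orf59, which overlaps it on the other strand, and these 2 were the genes of the list past a log2 fold change of 1. ORC5, another subunit of the origin recognition complex, fell by 0.75 (adjusted p = 4.24e-05, edgeR).

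With TMM, 1 of 8 other licensing genes was higher and 6 were lower. Of 12 firing and fork genes, 2 were higher and 8 lower. Among all genes tested, 28.2% were higher and 30.1% lower. MCMBP, an MCM-binding protein, was at 0.27, TICRR, which triggers origin firing, at 0.58 and TIPIN, of the fork protection complex, at -0.85. ATAD5, which unloads PCNA, was at 0.69. Among polymerase subunits POLD3 was at 0.79 and POLE2 at -0.77 (all called, edgeR). Of 8 other genes of nucleotide supply, 0 were higher and 5 lower with TMM. SAMHD1, which breaks down deoxyribonucleotides, fell by 0.66 (adjusted p = 2.6e-05, edgeR), while DUT, which keeps uracil out of DNA, had the highest value of these at 0.11 (adjusted p = 0.255, edgeR). The pocket protein gene RBL2 was at 0.48, and ASF1B, a histone chaperone of the fork, fell by 0.90 (adjusted p = 9.51e-09, edgeR).

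CCNA2 is also transcribed with mitotic genes, so 20 of these were set beside the replication set. With TMM, 18 were higher and 2 lower (CENPE and CENPF), with a median of 0.58, and with both scalings 14 were higher and 2 lower. The shares over all genes tested were 28.2% higher and 30.1% lower with TMM, and 13.4% and 30.1% with both scalings. This list was chosen with earlier results of these data known. The summed level of the 20 mitotic genes was 2761 ± 134 CPM in untreated and 4166 ± 52.7 CPM in r-CRMP2 libraries (SD, n = 3). It was 21.7% higher under library size alone as well. In the same libraries the summed level of the 40 replication genes changed by -7.47% under that scaling. The difference between these lists was not tested.

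**Figure D5:**
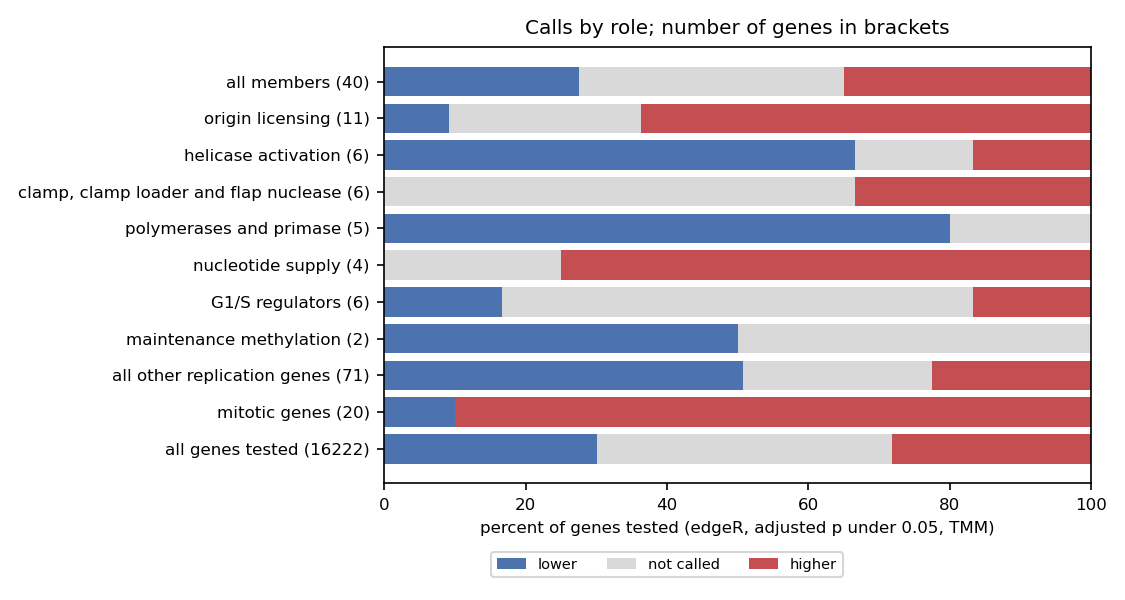
Percent of the genes of each list called higher, lower or not called with TMM scaling (edgeR, adjusted p under 0.05), with the number of genes in brackets. Under library size alone the 40 genes split into 4 higher (10%, beside 13.4% of all genes tested) and 26 lower (65%, beside 52.1%). Calls lower in helicase activation (4 of 6) and polymerases (4 of 5), beside 30.1% of all genes tested, held under both scalings. So did all 4875 calls lower among all genes tested. Of the 7 licensing calls higher 2 held, beside 2171 of 4574 among all genes tested.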

How the data were processed

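Polyadenylated RNA was sequenced from 3 untreated and 3 r-CRMP2 samples of A2780 cells. The submitters' processing notes name FastQC, HISAT2 (build hg19) and DESeq2. The study's methods name FastQC, and list DEseq, DESeq2, edgeR and DEGseq for differential expression without saying which was used. The counting tool and annotation are not given in the sources used here. The library kit does not mark strand. Each deposited file held, per gene, whole-number read counts (unnormalized) and TPM, which the authors derived per sample from counts and gene length. Both were used, the counts for every test and the TPM for levels between genes and ratios within a library.

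Counts were fitted as deposited in edgeR 4.0.16 (limma 3.58.1, R 4.3.3) with filterByExpr, TMM scaling and the quasi-likelihood test for the 2 groups. P-values were adjusted by Benjamini-Hochberg over 16222 genes, at thresholds of 0.05 and, as a stricter rule, a log2 fold change of 1. The SE came from log2 CPM (prior count 2) of 3 libraries a group. The scripts were tested on simulated data. Values in each library were given for genes past both thresholds, the 3 largest rises and falls, the largest change of each role and 13 well-known genes; other genes got a fold change and adjusted p or a mean. Members and lists were chosen with earlier results of these data known. The pairs for ratios, and counts of calls shared by both scalings, were chosen after seeing the values.

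The fit was repeated with another tool (DESeq2 1.42.0), other scalings (RLE, or only the library size), other filters (none, or a minimum of 10 counts throughout), a 2-fold null, a replicate block, and 1 library left out at a time. Same-numbered libraries of the groups did not deviate together (correlations -0.02, 0.0038 and -0.03). No replicates were duplicates (chi-square per degree of freedom 3.87 to 11.4). Promoters were RefSeq's, from a GRCh38.p14 table, and gene positions were those deposited (hg19).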

Additional observations from a re-analysis of the deposited data

How the results depend on the processing

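Scaling by library size alone and the test against a 2-fold change moved the most calls. The former gave 4 of the 40 genes higher and 26 lower (13.4% and 52.1% of all genes tested), 0 higher and 1 lower past a log2 fold change of 1, 4 other replication genes higher and 54 lower, a median of -0.28 and a summed level changed by -7.47%. This scaling turned the fold change negative for ORC6 (-0.013), MCM2 (-0.019), MCM3 (-0.23), MCM4 (-0.16), MCM5 (-0.11), MCM7 (-0.16), GINS2 (-0.057), RFC3 (-0.15), RFC4 (-0.20), RFC5 (-0.12), PRIM1 (-0.26), RRM1 (-0.023), TYMS (-0.19), TK1 (-0.078) and E2F1 (-0.29). Tested against a change of 2-fold, 0 of the 40 genes were called higher or lower, 0 passed a log2 fold change of 1 (RRM2 adjusted p = 0.538, edgeR), and 0 other replication genes were called in either direction, with 0 in both lists at an unadjusted p under 0.05. Of all 16222 genes tested, only 369 were called higher and 467 lower at this setting.

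Leaving out each library in turn gave 11 to 15 genes higher, 10 to 12 lower, 0 to 1 higher past a log2 fold change of 1 (0 without r-CRMP2 replicate 2, with RRM2 at 0.995) and a median of 0.013 to 0.070. In these fits 4163 to 4568 of all 16509 to 16848 genes tested were higher and 4332 to 4696 lower. Single fold changes near 0 reversed without 1 library, namely E2F1 (range -0.015 to 0.058), CCNE1 (-0.22 to 0.064) and UHRF1 (-0.060 to 0.027). Adding a replicate block to the fit left 13 genes higher and 11 lower, with a median of 0.036. Of all 16222 genes tested, the block fit called 4456 higher and 4774 lower. Among the 40 genes only MCM7 changed its call (adjusted p = 0.0893, edgeR), and the labels' numbers did not pair the libraries. DESeq2 and RLE size factors gave 15 and 16 genes higher and 11 lower each. Over all 16222 genes, DESeq2 called 4557 higher and 4340 lower, and RLE size factors 4755 and 4685. No low-count filter gave 12 higher and 11 lower (4486 and 4975 of all 32662 genes tested). A minimum of 10 counts gave 13 and 12 (4234 and 4514 of all 14454). The causes were not tested. With 3 libraries a group, a log2 change of about 0.15 sat at the threshold for MCM4 (0.15, adjusted p = 0.0533, edgeR) and MCM7. It did not for the less abundant GINS1 (-0.15, adjusted p = 0.207, edgeR).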
